A study of Mus musculus with 6 samples.

Results

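Fatty acid oxidation was read across 42 mouse genes: enzymes that break down fatty acids in mitochondria, enzymes that do so in peroxisomes, the peroxins that build peroxisomes, and the nuclear receptor Ppara. The genes were listed by function and matched to probe sets that the array annotation gives to that gene alone. Of the 42 genes, 41 had such a probe set, with 68 probe sets in all, out of 12393 genes on the arrays with a probe set of their own. The carnitine palmitoyltransferase Cpt1b had none. A further 3 genes, Acox3, Ehhadh and Ppara, lay below the dim level of 6.09 on the log2 scale (the lowest 30% of probe sets by mean), which left 38 of 9249 genes tested.

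The arrays hold RNA of 6 tumours, 1 array each, grown from 4T1 cells, a mouse mammary carcinoma line. In 3 of the tumours (Bptf KD) the cells carried short hairpin RNAs against Bptf, the largest subunit of the chromatin remodelling complex NURF, brought in with an MMLV retrovirus, and the other 3 came from control 4T1 cells. All mice are given as Ifrg2r -/- (NSG), with the gene symbol kept as the sources write it. NSG is an immunodeficient strain without T, B or NK cells. Each received 10000 cells in the fourth mammary fat pad and was killed on day 21. The sources used here do not say what the control cells carried, whether the cells were clones, or how old the mice were. In this bulk tissue, fewer cells of a type and less RNA per cell cannot be told apart.

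Long-chain fatty acids enter mitochondria as carnitine esters and are then shortened in repeated cycles of dehydrogenation, hydration, a second dehydrogenation and thiolytic cleavage. Peroxisomes run the same chemistry on substrates that mitochondria handle poorly, such as very long and branched chains and the side chains of bile acid precursors. Their first step is catalysed by oxidases that pass electrons to oxygen and release hydrogen peroxide, which catalase removes. Peroxins import the matrix enzymes and membrane proteins and drive division of the organelle. In fat, muscle and liver much of this programme is under the control of PPAR nuclear receptors.

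The tumour labelled control 2 stood apart from the others and touches many values below. Across genes it correlated at 0.934 and 0.939 with controls 1 and 3, which correlated at 0.986 with each other. Bptf, on its brightest probe set, was at 10.69, 9.77 and 10.59 in controls 1 to 3 and at 9.60, 9.56 and 9.99 in Bptf KD tumours 1 to 3, a difference that did not pass (limma adjusted p = 0.371), and on its other 3 probe sets control 2 lay below every Bptf KD tumour. The Bptf values of that tumour thus go against its label, which could not be checked further, and every control mean below counts it as a control. The 19 tested skeletal muscle markers averaged 11.26 in that tumour, against 6.63 and 8.61 in the other controls and 6.49 to 9.14 in Bptf KD tumours. The 13 adipocyte markers averaged 9.60 to 10.33 in controls, against 7.11 to 7.87 in Bptf KD tumours, with 8 of the 13 called lower by limma. Muscle is a tissue rich in fatty acid oxidation. The part of muscle and fat in the results below was not tested except through the muscle covariate named there. Fibroblast and matrix markers averaged 11.69 to 11.95 in controls and 10.55 to 10.80 with Bptf KD, with 5 of 13 called lower, and 11 cell cycle genes averaged 10.88 to 11.27 and 10.31 to 10.62, with 0 called. The 5 tested of 10 keratinocyte markers averaged 9.65 in control 2 and 6.85 to 7.24 in all other tumours. Of 9 brown adipocyte markers 3 were tested, with means of 9.21 in control 2 and 6.82 to 7.62 elsewhere. Among them Cox8b was at 11.08 and Cox7a1 at 8.41 in control 2, while Dio2 was at 8.15, against 7.42 to 8.14 elsewhere. Ucp1, which defines brown fat, was at 4.85 in control 2, below the dim level. The part of these lists in the results was not tested. Epithelial markers, which mark the carcinoma cells, averaged 9.40 to 10.24 in controls, against 10.47 to 10.63 in Bptf KD tumours, with 0 called. All 12 lay above the dim level, and 11 had positive differences. These were uneven, from -0.33 to 1.86 over the 12 markers, and whether the share of carcinoma cells differed was not tested.

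Acox2 was the only member to pass the threshold. This peroxisomal oxidase carries out the first step in shortening the side chain of bile acid precursors and also acts on branched fatty acids. Its log2 values were 5.82, 6.16 and 5.77 in controls 1 to 3 and 7.08, 7.10 and 7.67 in Bptf KD tumours 1 to 3. Every Bptf KD tumour lay above every control, and control 2 was the highest of the controls. Acox2 rose 2.58-fold, from 5.92 ± 0.21 to 7.28 ± 0.34 (SD, n = 3 each), a difference of 1.37 (SE 0.20, limma adjusted p = 0.0442). Over all genes tested, 0.151% were called higher and 0.660% lower. Acox2 had been named in an earlier analysis of these same arrays, so that this call is no independent evidence. The control mean lay below the dim level, so Acox2 entered the test only through the tumours in which it was high, and the share of background in its control level is not known.

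Without control 2 the difference was 1.49 (limma adjusted p = 0.0176). Leaving out any other tumour ended the call, with adjusted p of limma from 0.0840 to 0.176 and differences from 1.17 to 1.47. With the mean of the muscle markers as a covariate the difference was 1.43 (limma adjusted p = 0.0695). In mice Acox2 is abundant in liver. The liver marker Alb lay below the dim level in all tumours, at 5.57 to 6.06 in controls, against 5.14 to 5.46 in Bptf KD tumours. Of 8 listed hepatocyte markers 4 were tested, and Cyp2e1 alone was called, lower by -2.38 (limma adjusted p = 0.0318). It was at 8.28, 7.40 and 7.10 in controls 1 to 3 and at 5.07, 5.17 and 5.39 in Bptf KD tumours 1 to 3. Apoa1, Apoa2 and Ttr lay close to the dim level, at 6.09 to 6.69 over all tumours, and differed by -0.28 to -0.07. A part of liver cells in the Acox2 difference was not tested.

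Beside Acox2, its family member Acox3 overlapped between the groups. Acox3, which oxidises branched chains, was at 5.57, 5.34 and 5.49 in controls 1 to 3 and at 5.49, 5.82 and 5.64 in Bptf KD tumours 1 to 3. All values lay below the dim level. Its difference was 0.18 (exact two-sided permutation p = 0.3, n = 3 each). Within each array, log2 Acox2 minus log2 Acox3 was 0.25, 0.82 and 0.28 in the controls and 1.59, 1.28 and 2.03 in the Bptf KD tumours. These values carry mostly the Acox2 values themselves, since Acox3 lay below the dim level throughout, and are given with no test. The plot of values by tumour sets both oxidases beside other members.

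**Figure D1:**
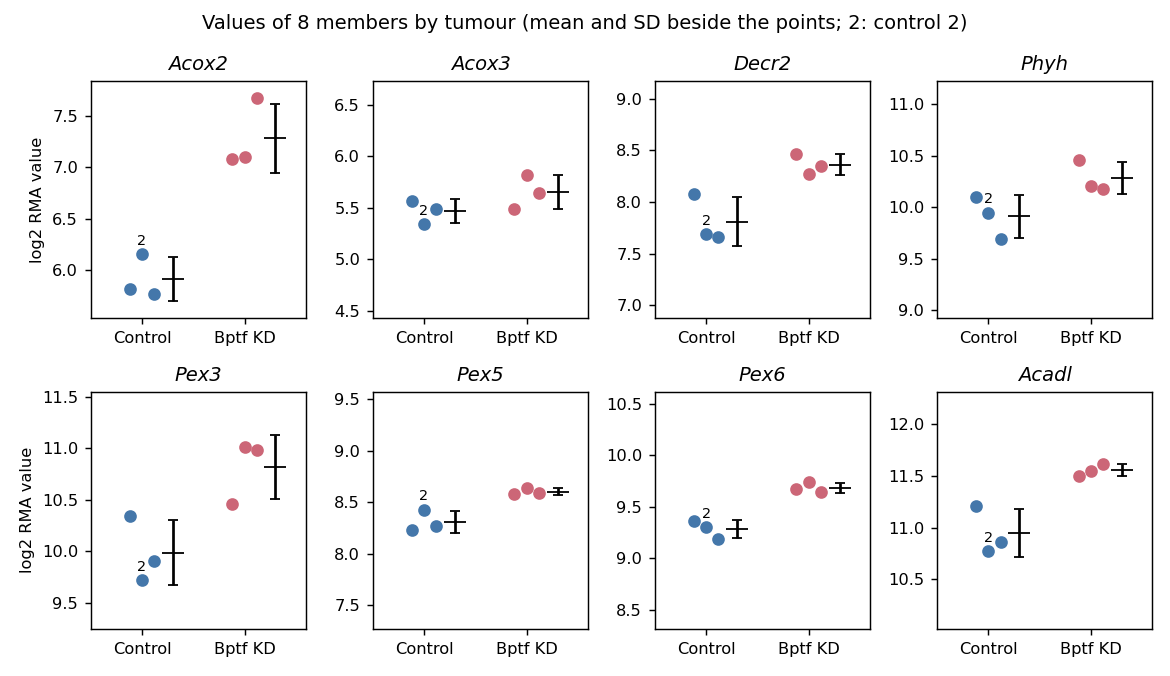
Log2 RMA values (vertical axis) of 8 members in the 3 control and 3 Bptf KD tumours, 1 point per tumour, with the group mean and SD beside the points; every panel spans the same range of log2 units and the tumour labelled control 2 is marked 2. Acox2 lay at 5.77 to 6.16 in controls, against 7.08 to 7.67 in Bptf KD tumours, while Acox3 overlapped between the groups.

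The bases before the start of transcription of Acox2 held few CpG dinucleotides for a member of the pathway. RefSeq gave promoters for 35 of the 42 members (build GRCm38.p6), and the 250 bases before the start farthest upstream were searched on both strands. The PPAR element below contains the core motif named before it. No other motif lies inside another. Searched were GGGCGG (the GC box), CCAAT (the CCAAT box), TATAAA (the TATA box), CACGTG (the E-box), the nuclear receptor core AGGTCA, and the PPAR element of that core repeated after a single base, AGGTCANAGGTCA. The Acox2 stretch held 3 CpG dinucleotides, the fewest of the 35 members, whose median was 12. Over all 27025 promoters the median was 6, and 38.1% held no more than Acox2. A second Acox2 start lies downstream and is not shown. The 4 stretches below belong to Acox2, to Pex3 and Pex6, the peroxins with the largest differences, and to Acadl, the mitochondrial enzyme with the largest difference. Capitals mark GC boxes, the only one of these motifs found in them, and each is given 5′ to 3′ on the strand of its gene.
Acox2 (chr14:8259020-8259269, minus strand): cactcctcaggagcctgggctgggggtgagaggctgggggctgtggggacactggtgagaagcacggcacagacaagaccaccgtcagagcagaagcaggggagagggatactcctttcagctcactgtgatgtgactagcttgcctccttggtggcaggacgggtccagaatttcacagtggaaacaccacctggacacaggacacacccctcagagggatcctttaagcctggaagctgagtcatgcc
Pex3 (chr10:13553143-13553392, minus strand): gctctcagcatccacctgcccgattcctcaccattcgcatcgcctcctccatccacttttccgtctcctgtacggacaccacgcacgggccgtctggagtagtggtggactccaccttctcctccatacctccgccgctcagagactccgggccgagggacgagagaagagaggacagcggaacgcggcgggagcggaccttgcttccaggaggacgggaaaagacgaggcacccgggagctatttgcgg
Pex6 (chr17:46711226-46711475, plus strand): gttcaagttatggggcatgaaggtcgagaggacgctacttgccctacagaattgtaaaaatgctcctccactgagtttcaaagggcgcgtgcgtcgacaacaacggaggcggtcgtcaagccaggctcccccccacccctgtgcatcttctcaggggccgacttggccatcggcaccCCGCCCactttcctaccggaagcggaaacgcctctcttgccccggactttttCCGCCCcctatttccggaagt
Acadl (chr1:66863310-66863559, minus strand): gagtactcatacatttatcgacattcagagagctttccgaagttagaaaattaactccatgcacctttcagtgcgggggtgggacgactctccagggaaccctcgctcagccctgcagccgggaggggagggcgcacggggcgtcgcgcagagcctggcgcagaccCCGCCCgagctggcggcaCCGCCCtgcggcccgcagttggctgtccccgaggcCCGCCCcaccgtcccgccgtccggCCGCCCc

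The Acadl stretch held 4 GC boxes and that of Pex6 2, while those of Acox2 and Pex3 held none of the 6 motifs. GC boxes occurred in 23 of the 35 member promoters and in 33% of all promoters. The AGGTCA core occurred in 6 members (Acadm, Acadvl, Cat, Cpt1a, Echs1 and Scp2) and in 13.8% of all promoters, and the full PPAR element in 0 members and 0.037% of all. A match describes letters and not a bound site, and no match says only that these letters are absent from the window.

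The peroxins gave the most uniform direction of the 3 groups. All 9 had positive differences, with a median of 0.25, against 59.6% of all genes tested with a median of 0.06. None passed by limma over all genes. With p under 0.05 before adjustment, 3 of 9 were higher and 0 lower, where 7.65% of all genes were higher and 5.82% lower by that rule. Groups did not overlap in 4 of 9, all higher, where 11.8% of all genes were higher without overlap and 8.17% lower.

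Pex3, which receives peroxisomal membrane proteins at the organelle, had the largest difference of the peroxins. It was at 10.34, 9.72 and 9.91 in controls 1 to 3 and at 10.46, 11.01 and 10.98 in Bptf KD tumours 1 to 3. Control 1 and Bptf KD 1 lay close together, and the groups did not overlap. The difference was 0.83 (SE 0.22, 1.77-fold) and did not pass (limma adjusted p = 0.181). Its second probe set gave 0.80, again without overlap. The partners of Pex3 in membrane protein import, Pex16 and Pex19, differed by 0.13 and 0.12, with control 2 the highest tumour for both (8.53 and 9.57). Without that tumour they differed by 0.33 and 0.42.

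Pex6, an ATPase that helps to recycle the import receptor Pex5, was at 9.36, 9.30 and 9.19 in controls 1 to 3 and at 9.67, 9.74 and 9.64 in Bptf KD tumours 1 to 3. The spread within each group was small, with SD 0.09 and 0.05, and the groups did not overlap. The difference was 0.40 (SE 0.11, limma adjusted p = 0.200). Its 5 probe sets disagreed: 4 gave 0.05 to 0.55, while the remaining one gave -0.29, at 8.81 to 9.05 in controls, against 8.52 to 8.68 in Bptf KD tumours. That probe set did not overlap either, in the opposite direction, and which of them reports the main transcript was not tested.

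Pex5, the receptor for most matrix enzymes, was at 8.23, 8.43 and 8.27 in controls 1 to 3 and at 8.58, 8.64 and 8.59 in Bptf KD tumours 1 to 3. The groups did not overlap on this probe set (difference 0.29, limma adjusted p = 0.344), and the dimmer probe set gave 0.01. The docking proteins Pex14 and Pex13 differed by 0.23 and 0.25, Pex14 without overlap. Pex7, the receptor for the rarer amino-terminal import signal, differed by 0.26, and Pex11a, which acts in peroxisome division, by 0.20. Leaving out 1 tumour at a time, these differences ran from 0.12 (without control 1) to 0.44 (without control 2) for Pex7. They ran from 0.09 (without control 3) to 0.32 (without control 2) for Pex11a, and from 0.14 (without Bptf KD 2) to 0.42 (without control 2) for Pex13. Without control 2 all 9 peroxins again had positive differences, with a median of 0.41, against 0.04 over all genes, and 0 were called by limma. Pex19 turned to -0.01 without control 1 and -0.03 without control 3, and no other peroxin turned under the alternatives run for it. Pex6 was not tested where the probe set with the largest SD stood for a gene.

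**Figure D2:**
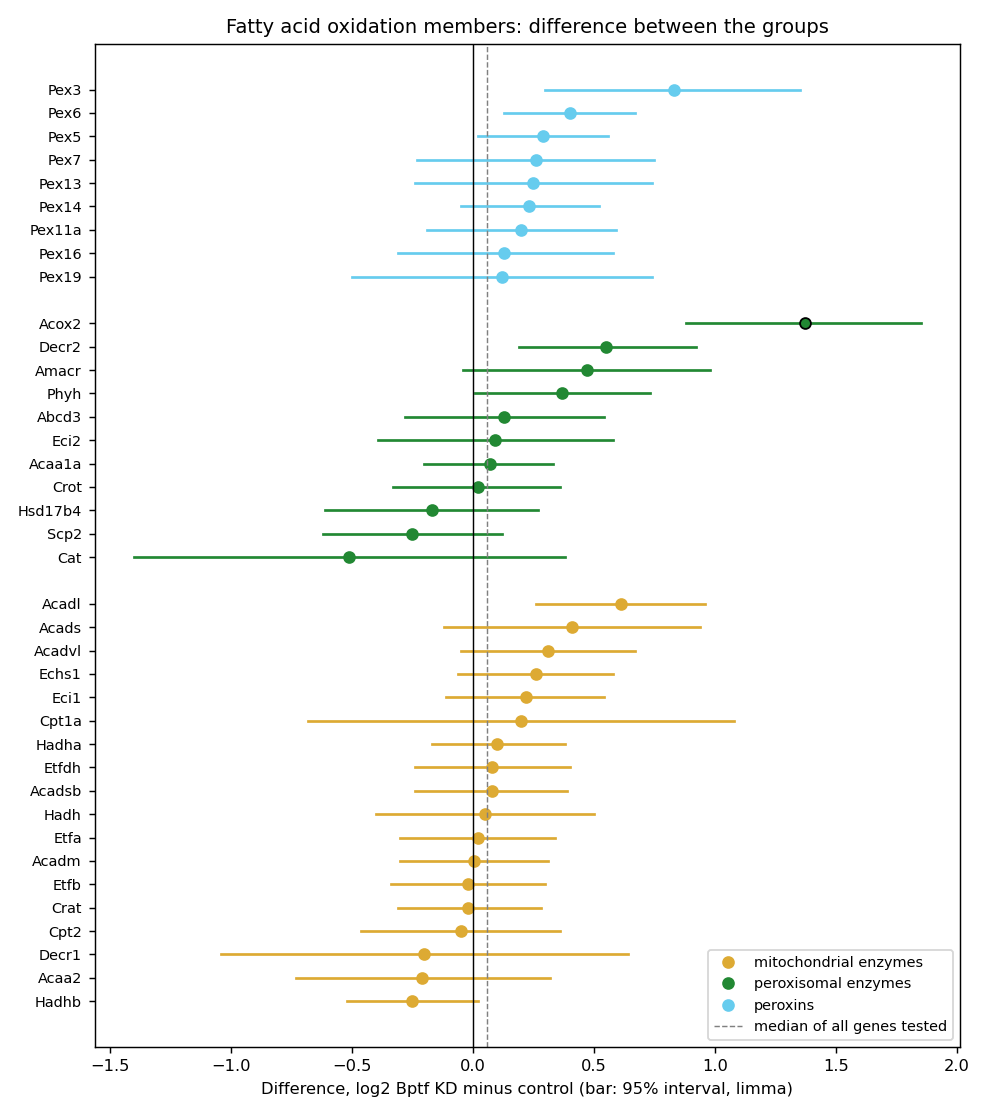
Difference between the groups (log2 Bptf KD minus control, horizontal axis) for the 38 tested members, each with its 95% interval from limma; the dashed line is the median of all genes tested, and the black outline marks an adjusted p under 0.05. Acox2 alone carries the outline at 1.37, and all 9 peroxins lie right of 0.

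The peroxisomal enzymes other than Acox2 went in both directions. Of 11 tested enzymes and transporters 8 had positive differences (72.7%, against 59.6% of all genes), with a median of 0.09. Without Acox2 the median was 0.08. With p under 0.05 before adjustment, 3 of 11 were higher (27.3%, against 7.65% of all genes) and 0 lower (against 5.82%). Groups did not overlap in 3 of 11, all higher (27.3%, against 11.8% of all genes, with 8.17% lower). Acox2 is among the 3 by both rules, and without it each count was 2 of 10 (20%). Decr2, the peroxisomal reductase for polyunsaturated chains, was at 8.08, 7.69 and 7.66 in controls 1 to 3 and at 8.47, 8.27 and 8.35 in Bptf KD tumours 1 to 3. Its groups did not overlap, with a difference of 0.55 (SE 0.15, limma adjusted p = 0.194). Phyh, which starts the alpha-oxidation of phytanic acid, was at 10.10, 9.95 and 9.69 in controls 1 to 3 and at 10.46, 10.21 and 10.18 in Bptf KD tumours 1 to 3. The gap between the groups was narrow, and the difference of 0.37 did not pass (limma adjusted p = 0.366).

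Amacr, the racemase that readies branched chains and bile acid precursors for oxidation, depended on control 2. It was at 6.84, 7.48 and 6.74 in controls 1 to 3 and at 7.64, 7.50 and 7.33 in Bptf KD tumours 1 to 3. Only control 2 reached the range of the Bptf KD tumours. The difference was 0.47 (limma adjusted p = 0.417) with all tumours and 0.70 without control 2 (limma adjusted p = 0.0378). In that reduced comparison 2 of 38 members were called higher, Acox2 and Amacr, and 0 lower, where limma called 1.94% of all genes higher and 2.52% lower. Control 2 had the highest Amacr of the controls, and its removal narrows their spread.

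The enzymes of later peroxisomal steps had small differences of either sign. Hsd17b4, the bifunctional enzyme that follows Acox2 on branched substrates, differed by -0.17 and by 0.01 without control 2. Scp2, the thiolase and sterol carrier that ends that cycle, differed by -0.25. Acaa1a, the thiolase for straight chains, differed by 0.07, and its dimmer probe set by 0.32 without overlap. Ehhadh, the bifunctional enzyme for straight chains, lay below the dim level in every tumour, at 5.27 to 5.89 in controls, against 5.19 to 5.31 in Bptf KD tumours. None of the 3 that were tested passed by limma (adjusted p of 0.567 to 0.850).

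Catalase (Cat) had the most negative difference of all members, -0.51, with a wide 95% interval from -1.40 to 0.38. It was at 10.96, 9.77 and 10.82 in controls 1 to 3 and at 10.22, 9.44 and 10.36 in Bptf KD tumours 1 to 3. Control 2 and Bptf KD 2 were the lowest of their groups, and the groups overlapped. Without control 2 the difference was -0.88 (limma adjusted p = 0.1), without control 1 it was -0.29 and without Bptf KD 2 it was -0.23. The transporter Abcd3 differed by 0.13, the isomerase Eci2 by 0.09 and the octanoyltransferase Crot by 0.02, and none of them passed.

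Of 18 mitochondrial enzymes tested, 12 had positive differences, with a median of 0.06, the same as that of all genes. Without control 2 the median was 0.10, against 0.09 for peroxisomal enzymes. By limma 0 were called, and before adjustment 1 had a p under 0.05 and was higher (5.56%, against 7.65% of all genes), with 0 lower (against 5.82%). That enzyme was Acadl, the long-chain acyl-CoA dehydrogenase. It was at 11.21, 10.77 and 10.86 in controls 1 to 3 and at 11.50, 11.55 and 11.62 in Bptf KD tumours 1 to 3. The groups did not overlap, and the Bptf KD tumours lay close together (SD 0.06, against 0.23 in controls). The difference was 0.61 (SE 0.15, 1.53-fold) and did not pass (limma adjusted p = 0.146). Its other probe set lay below the dim level and gave 0.04.

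The remaining acyl-CoA dehydrogenases carry the same first step for other chain lengths. Acads, for short chains, differed by 0.41, with Bptf KD 3 at 9.39 and the other Bptf KD tumours at 8.51 and 8.89. Without Bptf KD 3 it differed by 0.18 and without Bptf KD 2 by 0.62. Acadvl, for very long chains, differed by 0.31, Acadsb, for short branched chains, by 0.08 and Acadm, for medium chains, by 0.003. The 95% interval of Acadm ran from -0.30 to 0.31. The flavoproteins that take electrons from these dehydrogenases lay near 0, with Etfa at 0.02, Etfb at -0.02 and Etfdh at 0.08.

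The carnitine shuttle brings fatty acids into the mitochondrion. Cpt1a, its regulated first enzyme, was at 10.23, 8.78 and 9.52 in controls 1 to 3 and at 9.36, 9.69 and 10.07 in Bptf KD tumours 1 to 3. The controls spread more widely than the Bptf KD tumours, and the difference of 0.20 had a 95% interval from -0.68 to 1.08. Its other 2 probe sets gave -0.11 and -0.13, and without control 2 the difference was -0.17. Cpt2, the second transferase, differed by -0.05 and the acetyltransferase Crat by -0.02.

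In the later steps of the cycle, several enzymes were highest in control 2. Decr1, the mitochondrial dienoyl-CoA reductase, was at 9.44, 10.67 and 9.53 in controls 1 to 3 and at 9.93, 9.82 and 9.29 in Bptf KD tumours 1 to 3. Its difference of -0.20 turned to 0.20 without control 2. The thiolase Acaa2 was at 10.56 in control 2 and at 9.77 to 10.03 in all other tumours, and its difference of -0.21 turned to 0.03. Hadh, which performs the second dehydrogenation on short chains, was at 13.02 there and at 12.40 to 12.88 elsewhere, with a difference of 0.05. The means of the tested muscle, keratinocyte and brown adipocyte markers were also highest in that tumour.

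Hadha and Hadhb encode the subunits of the mitochondrial trifunctional protein. Hadhb was at 11.27, 11.47 and 11.35 in controls 1 to 3 and at 11.11, 11.17 and 11.07 in Bptf KD tumours 1 to 3. It was the only tested member whose groups did not overlap in the lower direction, by a difference of -0.25 (limma adjusted p = 0.421), and its other probe set gave -0.04 with overlap. Hadha differed by 0.10. The hydratase Echs1 differed by 0.26 and the isomerase Eci1 by 0.22, and neither passed.

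**Figure D3:**
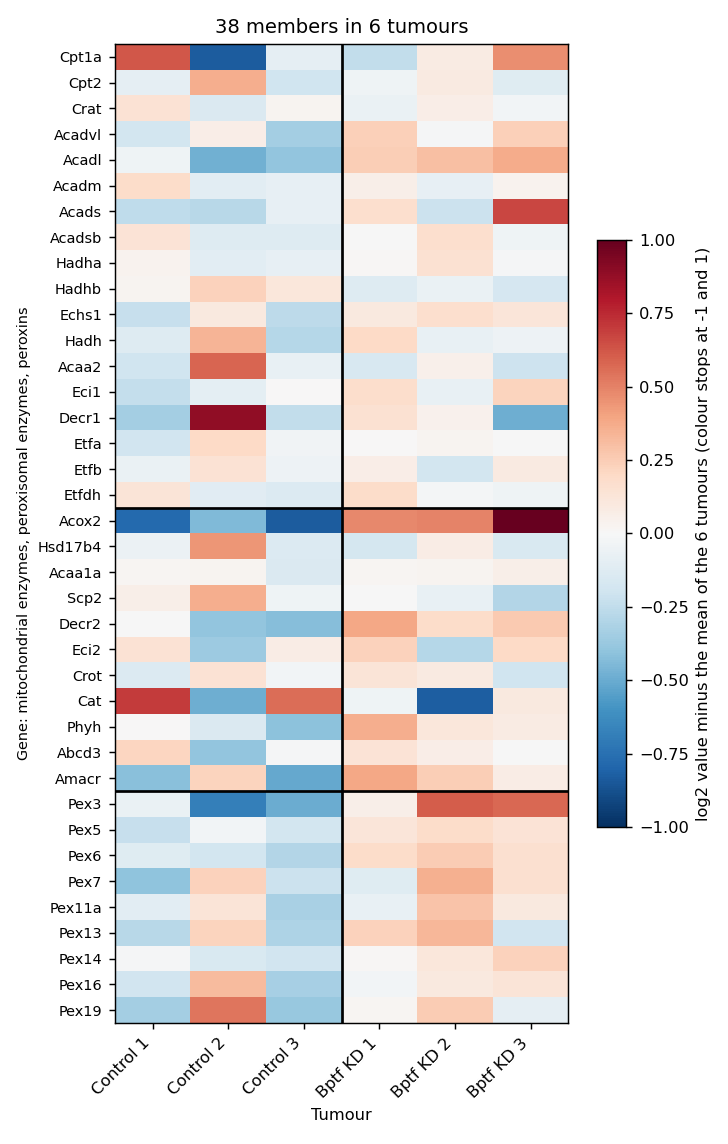
Log2 value of each of the 38 tested members (rows: mitochondrial enzymes above, peroxisomal enzymes between the lines, peroxins below) in each tumour (columns), as the deviation from the mean of the 6 tumours; colour stops at -1 and 1. The row of Acox2 shows the largest contrast between the groups, and the column of control 2 departs from controls 1 and 3 in Decr1, Acaa2, Cat and Pex19.

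Set side by side, the mean of the 18 mitochondrial enzymes was 10.17, 10.24 and 10.08 in controls 1 to 3 and 10.26, 10.23 and 10.27 in Bptf KD tumours 1 to 3. That of the 11 peroxisomal enzymes was 9.50, 9.43 and 9.35, against 9.69, 9.53 and 9.63, and that of the 9 peroxins 9.04, 9.27 and 8.93, against 9.28, 9.51 and 9.36. The mitochondrial mean overlapped between the groups, and both peroxisomal means did not, each by a gap smaller than the spread within the controls. The mean of all 9249 genes did not overlap either (9.11 to 9.12 in controls, 9.13 to 9.15 in Bptf KD tumours), so the lack of overlap is not particular to these lists. Without Acox2 the peroxisomal enzymes overlapped too (9.70 to 9.87 in controls, 9.78 to 9.96 in Bptf KD tumours). Leaving out the genes that also occur in the other organelle (Crat, Eci2, Amacr and Scp2) gave medians of 0.08 for mitochondrial and 0.10 for peroxisomal enzymes. These medians describe lists chosen with results of these arrays known, and the difference between the compartments was not tested.

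**Figure D4:**
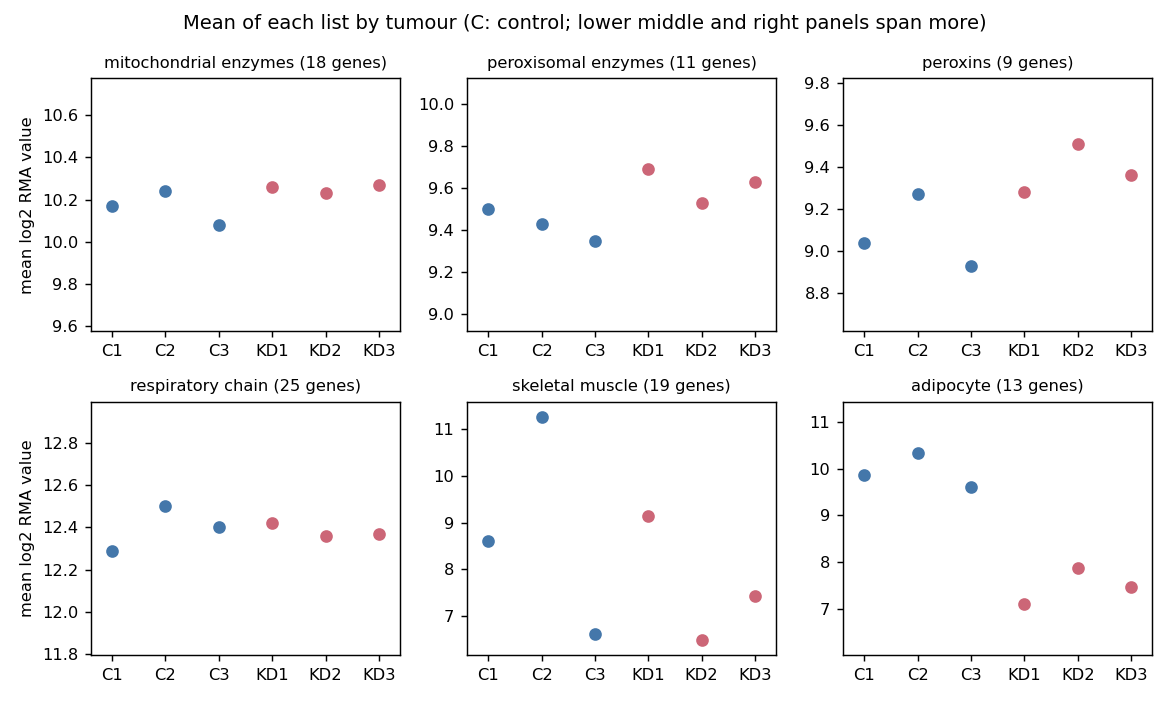
Mean log2 RMA value (vertical axis) of 6 lists in each tumour (C1 to C3 controls, KD1 to KD3 Bptf KD); the panels for skeletal muscle and adipocyte markers span a wider range than the other 4. Peroxins lay at 8.93 to 9.27 in controls, against 9.28 to 9.51 in Bptf KD tumours, muscle markers peaked at 11.26 in control 2, and adipocyte markers did not overlap between the groups.

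Over all 38 tested members, 29 had positive differences (76.3%, against 59.6% of all genes) with a median of 0.13. With p under 0.05 before adjustment, 7 were higher (18.4%, against 7.65%) and 0 lower (against 5.82%): Acox2, Acadl, Decr2, Phyh, Pex3, Pex5 and Pex6. Groups did not overlap in 8 higher members (21.1%, against 11.8%) and in 1 lower member (2.63%, against 8.17%). Over the alternatives that kept all 38 members in the test, 26 to 31 differences were positive, and 5 to 14 members were higher and 0 to 1 lower with p under 0.05 before adjustment, the 14 without control 2. The median without control 2 was 0.21, against 0.04 over all genes, and 78.9% of differences were positive, against 56%. Shares of all genes with p under 0.05 before adjustment are not given for these alternatives. Over the whole table, genes called by limma went from 75 to 412 without control 2. The 14 can therefore not be read as particular to the members.

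Other genes of the pathway were read from lists fixed by function. Of 38 further fatty acid oxidation enzymes and transporters 29 were tested, with a median difference of 0.02 and 0 called by limma. The lowest p among them belonged to Abcd2, a peroxisomal transporter of very long chains, which was at 6.60, 6.88 and 6.47 in controls and 5.97, 5.50 and 6.07 in Bptf KD tumours (difference -0.80, limma adjusted p = 0.144). The coenzyme A hydrolase Nudt7 differed by -0.52 and the thioesterase Acot8 by 0.26. Abcd4, a relative of Abcd2 that is not taken here as a peroxisomal transporter, differed by 0.25. Mitochondrial lists outside fatty acid oxidation lay near 0: 25 respiratory chain genes had a median of -0.03 and 15 citric acid cycle genes of -0.02, with 0 called in either and Sdhc, a subunit of complex II, at 0.28.

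Of 15 further peroxisomal genes (peroxins, ether lipid enzymes and other matrix proteins) 10 had positive differences (66.7%, against 59.6% of all genes), with a median of 0.21 and 0 called by limma. Without control 2 the median was 0.09. Lonp2, the protease of the peroxisomal matrix, was at 9.25, 9.14 and 8.99 in controls 1 to 3 and at 9.66, 9.56 and 9.62 in Bptf KD tumours 1 to 3, without overlap (difference 0.49, limma adjusted p = 0.151). Tysnd1, which trims imported enzymes, differed by 0.36, and Uox, urate oxidase, by 0.88 with overlap. Far1, which makes the fatty alcohols of ether lipids, differed by -0.39 without overlap (limma adjusted p = 0.235).

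Of 24 PPAR regulators and targets 16 were tested, 7 with positive differences (43.8%, against 59.6% of all genes). By limma 1 was called higher and 0 lower. With p under 0.05 before adjustment, 1 was higher (6.25%, against 7.65%) and 3 lower (18.8%, against 5.82%). Groups did not overlap in 2 higher (12.5%, against 11.8%) and 4 lower (25%, against 8.17%). Without control 2, limma called 1 higher and 2 lower, with Pparg among the lower (adjusted p = 0.0486). Over all genes 1.94% were then called higher and 2.52% lower. Of 8 genes of bile acid side chain oxidation 6 were tested, and Acox2, a member of that list too, was the only call. Acot1, a thioesterase that releases free fatty acids from acyl-CoA, was at 7.09, 7.00 and 7.03 in controls 1 to 3 and at 7.73, 7.87 and 7.98 in Bptf KD tumours 1 to 3. The groups were well apart, and Acot1 rose 1.77-fold (difference 0.82, SE 0.12, limma adjusted p = 0.0435, and 0.0232 to 0.191 under the alternatives). Leaving out any tumour other than control 2 ended this call too. Acot1 has close relatives, and the probe set named for Acot2 differed by 0.08, so that cross-hybridisation was not tested. In the other direction Pparg, the PPAR of fat cells, differed by -1.17 (limma adjusted p = 0.0837), Angptl4 by -0.97 and Lpin1 by -0.44. The adipocyte markers moved the same way (list means of 9.60 to 10.33 in controls, against 7.11 to 7.87 in Bptf KD tumours), and their part in these differences was not tested. Ppara itself lay below the dim level in every tumour, at 4.41 to 4.61 in controls, against 4.35 to 4.51 in Bptf KD tumours. Ucp1, which defines brown fat, was also below it, at 4.64 to 4.90 over all tumours.

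Of 19 members with several probe sets, 4 had probe sets of both signs: Cpt1a, Hadh, Pex6 and Pex16. In the others all probe sets had the sign of the brightest, although sizes varied, as for Acadl (0.04 and 0.61) and Pex5 (0.01 and 0.29). Both probe sets of Pex3 gave a similar size (0.80 and 0.83).

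**Figure D5:**
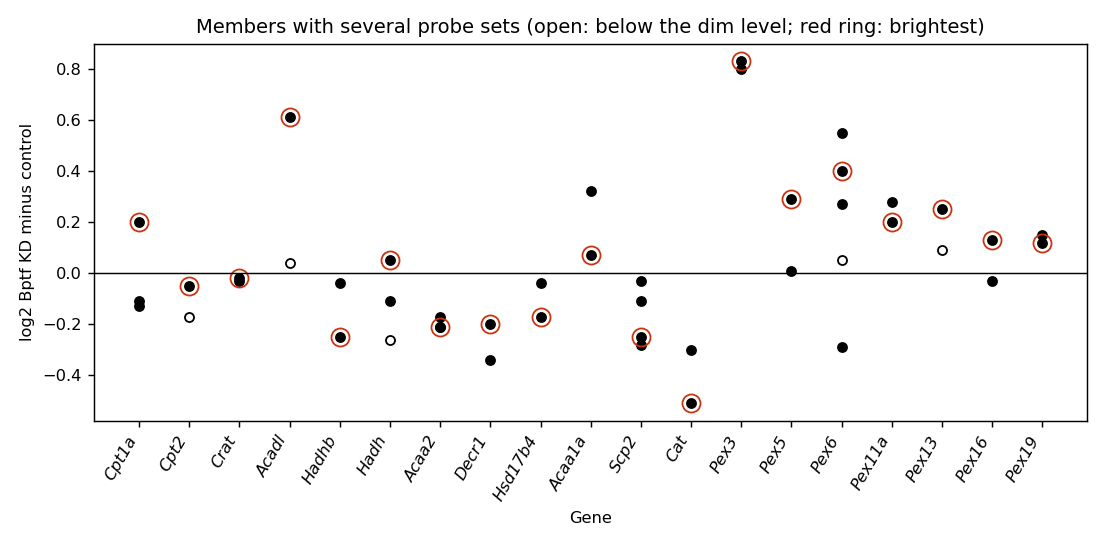
Difference between the groups (log2 Bptf KD minus control, vertical axis) for every probe set of the 19 members with several; filled points lie above the dim level, open points below it, and red rings mark the brightest probe set, which the tests used. Pex3 shows 0.80 and 0.83, while the probe sets of Pex6 run from -0.29 to 0.55.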

How the data were processed

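RNA of 3 control and 3 Bptf KD tumours was measured on Affymetrix arrays from 500 ng of total RNA each. The values that the authors deposited were made with RMA, per the submitters' processing notes, and were read as log2 values since RMA writes that scale and they ran from 2.98 to 15.17. The sources used here do not state the base. Array medians were 7.60 to 7.70. Probe sets were named from GEO's platform annotation, with symbols checked by Entrez identifier against RefSeq (GRCm38.p6): of 22690 probe sets, 64 were controls, 20380 had 1 gene, 691 several and 1555 none.

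The brightest probe set stood for a gene, and those in the lowest 30% by mean were left out. Limma 3.58.1 in R 4.3.3 (lmFit, eBayes, no covariate) compared the groups over 9249 genes, with Benjamini-Hochberg adjustment and a threshold of 0.05. Single values were also compared by exact two-sided permutation, which cannot go below p = 0.1. The fit was tested on simulated data. The number of arrays limits the precision. RMA gives no detection call. The labels call the tumours biological triplicates without saying that they are from separate mice, and p-values measure the spread between these tumours.

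The members and lists were chosen with earlier results of these data known. All members could be named; of the other lists, genes past the threshold and up to 4 with the smallest p. Alb, Ucp1 and Acot2 were added after their values were seen. A planned comparison is not reported here. Alternatives were no filter or a stricter one (50%), other rules for the probe set, median centring, a second quantile normalisation, the replicate number as a block, a muscle covariate and leaving out each tumour.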

Additional observations from a re-analysis of the deposited data

How the results depend on the processing

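Acox2 kept its direction under every alternative that could be computed, but most of them could not have turned it. Its groups did not overlap, so leaving out a tumour could not change the sign. It has 1 probe set, so the rules for the probe set could not either, and the replicate block returns the same difference. The stricter filter removed it from the test, which left 0 members called of 42 genes called in all. The replicate number as a block left Acox2 at 1.37 (limma adjusted p = 0.0606) with 0 members called, and 107 genes called over the whole table against 75. The muscle covariate left it at 1.43 (adjusted p = 0.0695) with 0 members called. Leaving out each tumour in turn, the Acox2 difference ran from 1.17 to 1.49, members called from 0 to 2 and genes called from 0 to 412, where the 412 came without control 2 and included all of the 75. The median difference of mitochondrial enzymes ran from 0.02 to 0.12, that of peroxisomal enzymes from 0.07 to 0.19 and that of peroxins from 0.15 to 0.41. Deviations of same-numbered tumours from their group means correlated at 0.006, 0.279 and 0.372 for numbers 1 to 3. Controls 2 and 3 correlated best with the Bptf KD tumour of their own number, while control 1 correlated best with Bptf KD 3 (0.353). Bptf KD 1 correlated best with control 2 (0.108). Whether the numbers pair the tumours is not known, and the main fit did not pair them.

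Of the other 37 tested members, 23 kept their sign under the alternatives computed for them, and 14 turned in at least 1. Amacr was not tested under the stricter filter, nor Pex6, Cpt2 and Hadh with the probe set of largest SD. With the mean of all probe sets Cpt1a was at -0.01 and Hadh at -0.11. With the muscle covariate Cpt1a was at -0.004, Cpt2 at 0.05, Decr1 at 0.04 and Etfb at 0.04. Median centring put Acadm at -0.01, and the second quantile normalisation put it at -0.02 and Crot at -0.01. Leaving out 1 tumour, the ranges were -0.17 to 0.56 for Cpt1a, -0.16 to 0.12 for Cpt2, -0.09 to 0.05 for Crat, -0.05 to 0.10 for Acadm, -0.08 to 0.23 for Hadh, -0.36 to 0.03 for Acaa2, -0.42 to 0.20 for Decr1, -0.07 to 0.12 for Etfa, -0.07 to 0.07 for Etfb, -0.28 to 0.01 for Hsd17b4, -0.07 to 0.26 for Eci2, -0.05 to 0.12 for Crot, -0.04 to 0.27 for Abcd3 and -0.03 to 0.42 for Pex19. The cause of these turns was not tested. Dim levels limit Acox2, Acox3, Ehhadh and Ppara, for which how much is background is not known.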
